A study of Mus musculus with 10 samples.

Results

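The 4 nuclear factor I genes Nfia, Nfib, Nfic and Nfix and the zinc finger gene Zbtb20 were followed in RNA-seq of the mouse dorsal telencephalon at E14.5. They were chosen by name as factors of late progenitor competence and make up 5 of the 43629 gene identifiers in the tables. All 5 passed the filter on low counts, which left 17039 genes for testing. The libraries came from 5 control embryos (Ctrl, without Cre and with 1 floxed Dot1l allele, f/+) and 5 Dot1l-cKO embryos (1 Cre allele and both Dot1l alleles floxed, f/f), all on a C57BL/6 background and described in the methods as littermates. Dot1l encodes a histone H3 lysine methyltransferase. Cre was active in the telencephalon, and every Dot1l-cKO embryo but no Ctrl embryo carried it. Loss of Dot1l and the presence of the Cre allele cannot be told apart in this design.

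Nuclear factor I (NFI) proteins bind DNA as dimers, each partner reading a short half-site with the letters TTGGC. In the embryonic cortex Nfia, Nfib and Nfix are known to come up in radial glia, the stem cells of the ventricular zone, and to promote their maturation, the production of intermediate progenitors and later the astroglial genes, among them Gfap. Nfic is best known from the tooth root. Zbtb20, a BTB domain zinc finger repressor, is known for specifying the hippocampal field of the medial pallium and for late progenitor steps such as astrocyte formation.

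None of the 5 genes passed between the genotypes by the main test. This was edgeR's quasi-likelihood test without pairing by replicate number, with Benjamini-Hochberg adjustment over all genes. In it 7.11% of the genes tested passed at an adjusted p under 0.05. Nfib, the most abundant member, came nearest and was 1.36-fold lower in Dot1l-cKO at an adjusted p of 0.0617. It was the only member at an unadjusted p under 0.05, against 20.6% of all genes, and it passed by DESeq2, by limma and once replicate numbers were used as a block. Of 13 genes that NFI factors are known to regulate, 6 rose, against 5.67% of all genes tested, and the other 7 did not pass, 6 of them with negative fold changes. Within the 6 libraries with more mitochondrial rRNA 3 rose, and with the ventral marker level as a covariate also 3. The list of 13 was drawn up with earlier results of these data known. It was not sorted by whether NFI factors raise or lower its genes, so these counts are a description only. All 5 members had a negative log2 fold change, as had 51.2% of all genes tested.

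Total counts per library lay between 54202349 and 66556034. The headers of the normalised tables carry a number before each sample name that no source explains. In every same-numbered pair of a Ctrl and a Dot1l-cKO library, both libraries carry the same header number. The 4 libraries with the number 57 (replicates 2 and 3 of both groups) held 0.0471% to 0.492% mitochondrial rRNA against 5.79% to 10.9% in the other 6, and each result was also computed within these sets. Counts over all exons of Dot1l were 37.3 ± 4.04 CPM (counts per 1000000 of the scaled library, SD, n = 5) in Ctrl and 39.4 ± 11.7 in Dot1l-cKO (log2 fold change 0.081, SE 0.20, edgeR adjusted p = 0.864). The exons removed from the floxed allele are not given in the sources used here, so these counts do not check the deletion. By quantitative PCR, the study reported depleted Dot1l mRNA in the telencephalon of Dot1l-cKO embryos at E14.5. It also reported less of the histone mark that Dot1l places at selected genes. Markers of the dorsal telencephalon summed to 1359 to 1639 CPM in Ctrl and 1492 to 1674 in Dot1l-cKO. Of the other cell types, all 8 microglial markers rose, from summed levels of 43.7 to 72.2 CPM to 91.3 to 128, and all 9 tested ventral and interneuron markers had negative fold changes, 2 of them called, with sums of 64.0 to 317 CPM in Ctrl and 6.36 to 87.6 in Dot1l-cKO. Nkx2-1 among them had a mean below 1 CPM. All 5 oligodendrocyte precursor markers had negative fold changes too, Sox10 being called at a mean below 1 CPM, with overlapping sums of 27.3 to 58.1 CPM and 9.66 to 57.9 CPM. In bulk tissue, fewer cells of a type and less RNA per cell cannot be told apart.

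Nfib lies on chr4:82290173-82705750 of GRCm38, minus strand, and spans 416 kb. Its levels in Ctrl replicates 1 to 5 were 1729, 1548, 1342, 1526 and 1589 CPM, against 1263, 859, 1029.8, 1129 and 1422 CPM in the Dot1l-cKO libraries of the same numbers. Dot1l-cKO replicates 1 to 4 lay below every Ctrl library and replicate 5 lay above the lowest of them, so that the groups overlapped in 1 library on each side. Within each of the 5 same-numbered pairs the Dot1l-cKO library was the lower one. The means were 1547 ± 139 and 1140.5 ± 216 CPM (SD, n = 5), a log2 fold change of -0.44 (SE 0.13, 95% interval -0.72 to -0.16, unadjusted p = 0.00492, edgeR adjusted p = 0.0617). With the replicate number as a block the log2 fold change was -0.46 and the adjusted p 0.0285, a call in that direction shared by 2.91% of all genes. DESeq2 gave -0.47 and 0.0116, with 3.43% of its genes called lower. Leaving out Ctrl replicate 3 or Dot1l-cKO replicate 5 also brought it past the threshold (-0.49, adjusted p = 0.0490, and -0.54, adjusted p = 0.0245), while leaving out Dot1l-cKO replicate 2 gave -0.35 (adjusted p = 0.0835). Over the 14 other settings the adjusted p lay between 0.0104 and 0.224 and the fold change stayed negative. It was -0.60 within the 4 libraries of header number 57 and -0.35 within the other 6, neither of which passed. The study named Nfib among genes it picked from these libraries and reported it lower in Dot1l-cKO, also by quantitative PCR. It classed Nfib as a Dot1l target in progenitors, carrying the histone mark that Dot1l places.

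Nfia, on chr4:97772734-98118874 on the plus strand, was present at 316, 308, 259.9, 297 and 279 CPM in Ctrl replicates 1 to 5 and at 292, 140.2, 219, 264 and 319 CPM in Dot1l-cKO replicates 1 to 5. The Ctrl values were close together, and the Dot1l-cKO values ran from below all of them to above all of them. Nfix, on chr8:84699876-84800344 on the minus strand, gave 259.5, 250.1, 265.5, 302 and 264 CPM in Ctrl and 234, 109.7, 176, 248 and 330.1 CPM in Dot1l-cKO. It had the same form: the lowest and the highest of the 10 values were both Dot1l-cKO libraries, replicates 2 and 5. The log2 fold changes were -0.24 for Nfia (SE 0.18, interval -0.64 to 0.16, edgeR adjusted p = 0.509) and -0.29 for Nfix (SE 0.23, interval -0.79 to 0.21, adjusted p = 0.530). Both intervals held 0 as well as decreases larger than the one measured for Nfib. Within the libraries of header number 57 the values were -0.64 and -0.83, and within the other 6 they were -0.030 and -0.026, none of them called.

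Nfic, on chr10:81396186-81455635 on the minus strand, was the least abundant member in CPM, with 17.7, 16.9, 18.9, 18.5 and 15.8 CPM in Ctrl and 19.4, 7.25, 13.6, 19.3 and 25.8 CPM in Dot1l-cKO. Of the Dot1l-cKO libraries, 2 lay below the Ctrl range and 3 above it. Its log2 fold change was -0.042 (SE 0.26, interval -0.61 to 0.52, edgeR adjusted p = 0.951) and had no stable sign: it was -0.76 within header number 57, 0.31 within the other 6, 0.15 without Dot1l-cKO replicate 2 and 0.028 without replicate 3.

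Zbtb20, on chr16:42875881-43642602 on the plus strand, is the longest gene of the set at 767 kb. It gave 157, 117, 83.6, 168 and 163 CPM in Ctrl and 165, 68.2, 108, 141 and 153.9 CPM in Dot1l-cKO. The 4 lowest of these 10 values were the 4 libraries of header number 57, from both genotypes, and the other 6 did not separate by genotype. The log2 fold change between the genotypes was -0.11 (SE 0.25, interval -0.66 to 0.43, edgeR adjusted p = 0.842). Between the header sets it was -0.75 with genotype in the model (SE 0.13, edgeR adjusted p = 0.00706, means 94.4 and 158 CPM). For the other members it lay between -0.29 and -0.50 (adjusted p 0.0735 to 0.219). The share of all genes passing between the header sets was not counted, so these values do not set Zbtb20 apart from other genes. Without Dot1l-cKO replicate 2 the genotype difference was 0.043.

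**Figure D1:**
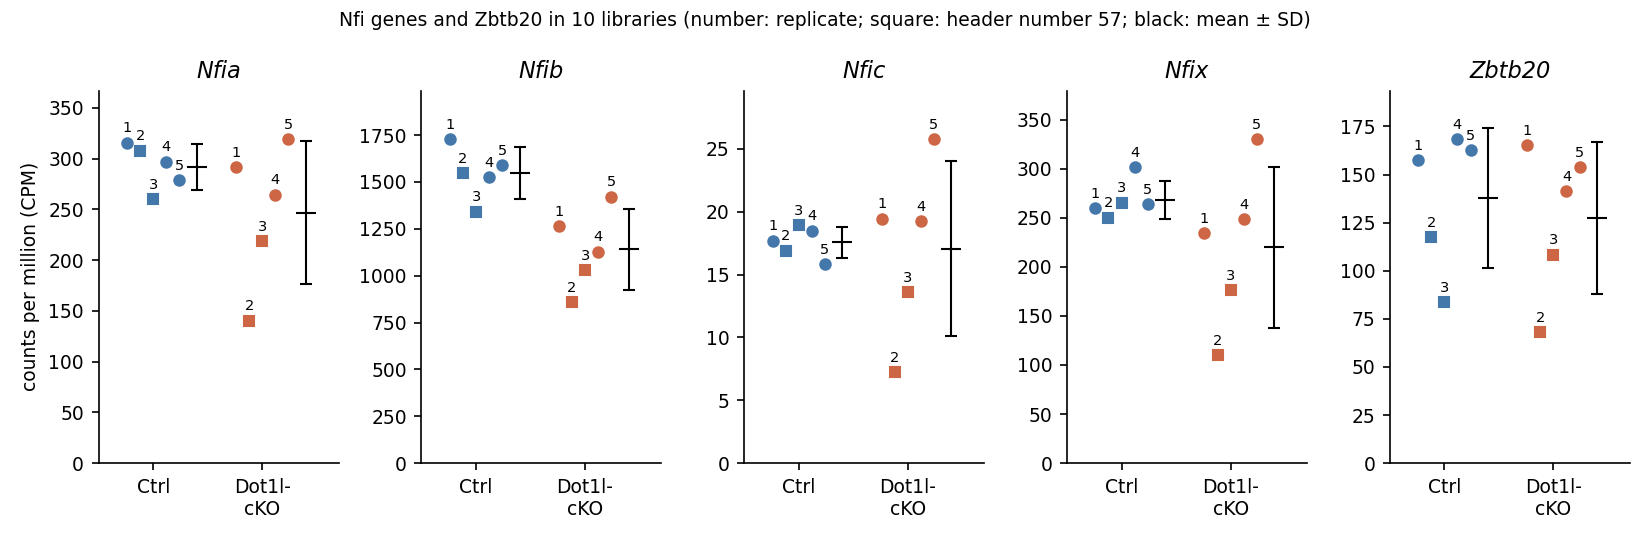
CPM of each member in the 10 libraries, Ctrl in blue and Dot1l-cKO in orange, with replicate numbers, squares for libraries of header number 57, and the mean ± SD in black. Dot1l-cKO replicate 2 is the lowest point in every panel, and Nfib is the panel in which the genotypes overlap least.

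Dot1l-cKO replicate 2 held the lowest of the 10 values for all 5 members, as it did for 17.6% of all genes tested. Its log2 CPM minus the mean of the other 4 Dot1l-cKO libraries was -0.95 for Nfia, -0.49 for Nfib, -1.39 for Nfic, -1.14 for Nfix and -1.04 for Zbtb20, while 15.7% of genes tested lay at least 0.5 below. Nfib was thus the member least shifted in that library. The same library had 20.1 CPM of Dot1l against 39.6 to 51.7 CPM in the other 4, and 0.0471% mitochondrial rRNA, the lowest of all. Genes spanning over 100 kb had a median difference of -0.16 in it, against 0.017 for genes of 10 to 100 kb and 0.035 for genes under 10 kb. Nfia spans 346 kb, Nfib 416 kb, Nfic 59.45 kb, Nfix 100.5 kb and Zbtb20 767 kb, so the most shifted member was the shortest. Whether RNA quality had a part in the low values was not tested. Without it, no member was called and 6.06% of all genes were. The log2 fold changes were -0.094 for Nfia, -0.12 for Nfix and, as above, -0.35 for Nfib.

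**Figure D2:**
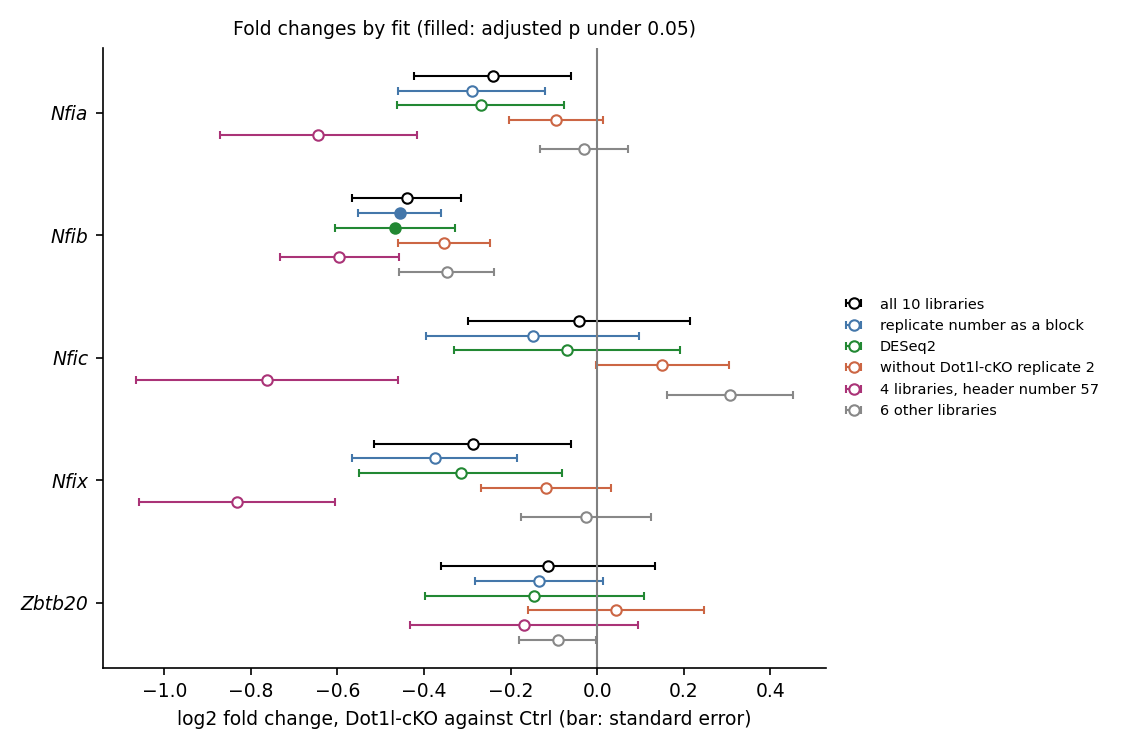
Log2 fold changes of the 5 genes, Dot1l-cKO against Ctrl, in 6 fits with their standard errors; filled points have an adjusted p under 0.05. The filled points are Nfib with the replicate block and by DESeq2, and Nfib stays left of 0 in all 6 fits.

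Levels of different genes were compared as CPM per kilobase of exon. In Ctrl the order was Nfib at 103 ± 9.30, Nfix at 36.5 ± 2.68, Nfia at 26.8 ± 2.08, Zbtb20 at 4.49 ± 1.18 and Nfic at 2.65 ± 0.188 (SD, n = 5). The ranges of neighbours in this order did not overlap, except those of Zbtb20 (2.72 to 5.48) and Nfic (2.39 to 2.86). Within single libraries, the log2 ratio of Nfic to Zbtb20 was negative in Ctrl except in replicate 3 (0.070). In Dot1l-cKO it was negative in every library (-1.02 to -0.37). The order was the same in Dot1l-cKO, at 76.3 ± 14.4 for Nfib, 29.9 ± 11.2 for Nfix, 22.7 ± 6.45 for Nfia, 4.14 ± 1.28 for Zbtb20 and 2.57 ± 1.05 for Nfic. The ranges of Nfix and Nfia now also overlapped, but Nfia was below Nfix within every Dot1l-cKO library (log2 ratio -0.62 to -0.21). Nfib supplied 61.0% ± 2.05 of the summed Nfi level per length in Ctrl and 58.9% ± 4.72 in Dot1l-cKO, Nfix 21.6% ± 2.00 and 22.1% ± 3.41, Nfia 15.8% ± 0.625 and 17.1% ± 1.32, and Nfic 1.57% ± 0.184 and 1.89% ± 0.386. The groups overlapped for all 4 shares. The summed level ran from 152 to 183 CPM per kilobase in Ctrl and from 86.3 to 173 in Dot1l-cKO.

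**Figure D3:**
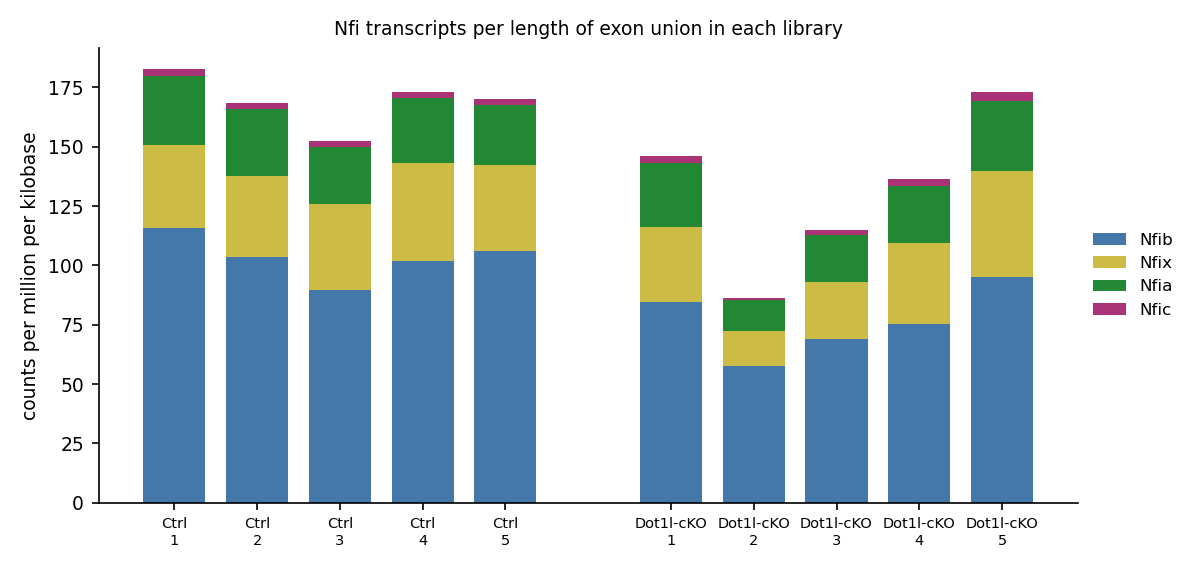
Stacked CPM per kilobase of exon union of the 4 Nfi genes in each library, grouped by genotype. Nfib is the largest block everywhere, between 54.9% and 66.5%, and the stack is lowest in Dot1l-cKO replicate 2 at 86.3.

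Across the 10 libraries the log2 CPM of the Nfi genes was positively correlated, which is given here as a description over libraries that share depth and batch. Many other genes correlated as closely: ranked by r among 12658 genes, Nfix stood at place 28 for Nfic, Nfib at 332 for Nfia and Nfic at 1280 for Nfib. Pearson's r was 0.94 between Nfic and Nfix and between Nfia and Nfix, 0.92 between Nfia and Nfic, and 0.66 between Nfib and Nfic, the lowest within the family. Zbtb20 correlated with the Nfi genes at 0.67 to 0.80. After the group means were removed, r was 0.98 for Nfic and Nfix and 0.93 for Nfia and Nfib. Among 12658 genes whose mean log2 CPM was 1 or more, the 3 most like Nfib were Jmjd1c, E2f7 and Cblb (r = 0.98, 0.97 and 0.97), and those most like Zbtb20 were Ccnk, Klf12 and Klf7 (0.98 each). Arhgap17, Helz and Brpf3 led for Nfia (0.98 each), Bcar1, Zyx and Rfxank for Nfic (0.98, 0.98 and 0.97), and Dennd1a, Epb41 and Cherp for Nfix (0.99, 0.98 and 0.98). None of these 15 genes was called between the genotypes, where 7.11% of all genes tested were. They were picked for likeness to members that were themselves not called, so the absence of calls adds nothing.

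The Nfib locus held the one called gene that overlaps a member. Gm11266 (ENSMUSG00000087413, chr4:82508016-82547292, plus strand) is annotated as an antisense gene within the Nfib gene body, 158 to 198 kb from the annotated Nfib start. It gave 20.3, 25.5, 25.1, 24.1 and 22.7 CPM in Ctrl replicates 1 to 5 and 8.57, 11.6, 8.56, 8.46 and 10.4 CPM in Dot1l-cKO replicates 1 to 5. Every Dot1l-cKO library lay below every Ctrl library, as for 2.17% of all genes. It fell by 1.30 on the log2 scale (SE 0.11, edgeR adjusted p = 0.000153), and over the 14 other settings the adjusted p passed in all but the fit within the 4 libraries of header number 57 (1.18e-25 to 0.107). Relative to Nfib its counts were 1.54% ± 0.259 in Ctrl and 0.869% ± 0.275 in Dot1l-cKO, with overlap through Dot1l-cKO replicate 2 at 1.35%. The counting used the strand of the reads, but the share of reads assigned to the wrong strand was not measured. Of the 19 annotated genes overlapping a member, 17 were in the tables and 5 were tested. The other 4 tested were not called. Among the 8 tested of the 10 nearest coding neighbours only Gap43, a growth cone protein gene beside Zbtb20, was called. Of all genes tested, 7.11% were called. Gap43 had a log2 fold change of 0.46 (edgeR adjusted p = 0.0161), and an adjusted p of 0.117 within the 6 libraries outside header number 57. The study had picked Gap43 from these libraries.

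**Figure D4:**
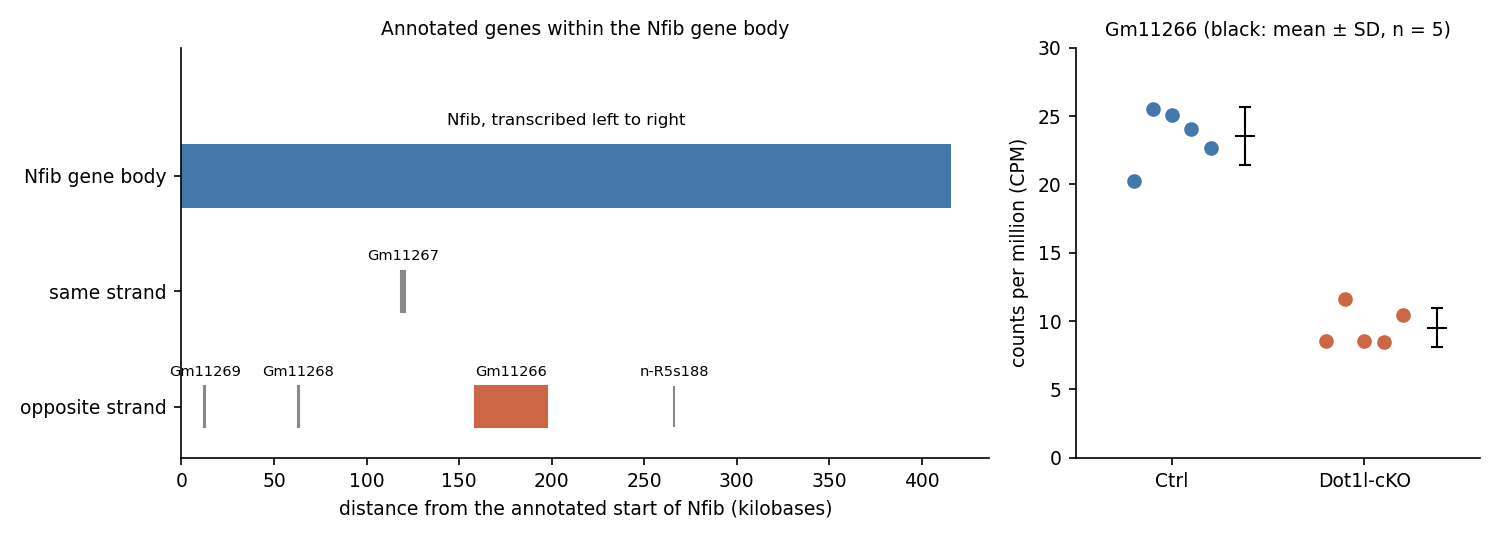
Left, annotated genes inside the Nfib gene body by strand, drawn at their distance in kilobases from the annotated Nfib start; right, CPM of Gm11266 in the 5 libraries of each genotype with mean ± SD. Gm11266 lies on the opposite strand at 158 to 198 kb, and its Dot1l-cKO values (8.46 to 11.6 CPM) are all below the Ctrl values (20.3 to 25.5 CPM).

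Of 13 genes known as NFI targets from other work, 6 rose in Dot1l-cKO and none fell, where 5.67% of all genes tested rose. The genes were not sorted by whether NFI factors raise or lower them. This list, like those that follow, was drawn up with earlier results of these data known. The median log2 fold change of the 13 was 0.11, against -0.0056 over all genes. Gfap, the intermediate filament of astrocytes, rose most, by 2.50 (SE 0.34, edgeR adjusted p = 0.00146), and lay between 0.0934 and 0.210 CPM in Ctrl and between 0.508 and 1.47 CPM in Dot1l-cKO, low levels in both groups. Insc, an adaptor of spindle orientation, rose by 1.21 (adjusted p = 0.0249), Zcchc24 by 0.83 (0.00759) and Apcdd1, a Wnt pathway inhibitor, by 0.68 (0.0238). Fabp7, the lipid binding protein of radial glia, rose by 0.62 (0.0122), from 429 ± 29.5 to 659.8 ± 127 CPM, and Mmd2 rose by 0.44 (0.0136). Except for Insc, the Ctrl and Dot1l-cKO values of these genes did not overlap, as for 6.17% of all genes. Of the other members with the highest levels per length, Cntn2, an axonal adhesion protein, was at -0.22 (adjusted p = 0.431) and Cdh2, N-cadherin, at -0.14 (0.326). With the replicate block Insc (adjusted p = 0.0581) and Apcdd1 (0.0502) were no longer called and Ezh2, a histone methyltransferase gene, became lower (-0.24, 0.0395). In the fits on fewer libraries, 5 genes were called higher without Dot1l-cKO replicate 2 (4.83% of all genes) and 3 within the 6 libraries outside header number 57 (3.41%). Insc was also lost without Ctrl replicate 1, 2 or 4 or Dot1l-cKO replicate 1, 2 or 4 (adjusted p 0.0528 to 0.0652), and Apcdd1 without Ctrl replicate 1, 2 or 4 or Dot1l-cKO replicate 4 (0.0563 to 0.0666). With the ventral marker level as a covariate 3 genes were called higher, against 2.48% of all genes. The part of the microglial rise was not tested.

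The promoters of these genes were searched for the NFI half-site, TTGGC on either strand (TTGGC or GCCAA), in RefSeq windows from 250 bases before to 50 after the start (GRCm38.p6). The sequences around the matches are shown because these are the risen targets with a window and a match; capitals mark the half-site, and each is written 5′ to 3′ on the strand of the gene.
Fabp7: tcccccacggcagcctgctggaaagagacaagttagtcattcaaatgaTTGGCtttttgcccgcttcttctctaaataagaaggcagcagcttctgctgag
Insc: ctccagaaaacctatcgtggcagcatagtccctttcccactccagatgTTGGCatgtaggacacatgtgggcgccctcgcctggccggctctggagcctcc
Mmd2: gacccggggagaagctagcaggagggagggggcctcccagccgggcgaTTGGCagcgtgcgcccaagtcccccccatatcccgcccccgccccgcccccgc
Zcchc24: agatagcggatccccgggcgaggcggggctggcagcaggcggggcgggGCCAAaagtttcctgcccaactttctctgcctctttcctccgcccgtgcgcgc
They lie at chr10:57784820-57784920 (plus strand), chr7:114745538-114745638 (plus), chr5:142608805-142608905 (minus) and chr14:25769050-25769150 (minus), and each window held 1 half-site. The Gfap window held none of these letters. Over all 32851 windows 46.7% held at least 1 half-site, and the pair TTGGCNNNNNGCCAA stood in 0.0365% of all windows and in none of those of the targets. A half-site is thus a common string in windows of this length, and its presence is a description only. Of the 8 targets with a window, risen or not, 6 held it (75.0%), as did 3 of the 7 windows of the members (42.9%).

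Of 24 late radial glia and astroglial genes, 11 rose in Dot1l-cKO and none fell, where 5.67% of all genes tested rose. The median log2 fold change was 0.48, against -0.0056 over all genes. Of 8 general radial glia markers, Vim (0.53), Fabp7 and Slc1a3 were called higher, Pax6 fell by 0.36 (edgeR adjusted p = 0.0294), and Sox2 (-0.38, 0.0639), Nes (-0.16, 0.661), Hes5 (-0.20, 0.429) and Notch1 (-0.15, 0.566) did not pass. Their summed level lay between 2377 and 2867 CPM in Ctrl and between 3002 and 3371 CPM in Dot1l-cKO. Fabp7 and Gfap are shared with the target list, and Hopx, Slc1a3, Ednrb and Cst3 had been picked by the study from these libraries, so that their direction is not independent evidence. The water channel Aqp4 rose by 1.92 (SE 0.18, edgeR adjusted p = 0.000207), and lay between 0.984 and 1.71 CPM in Ctrl and between 4.10 and 6.21 CPM in Dot1l-cKO. Hopx, a homeodomain-only protein of late radial glia, rose by 1.10 (0.0153) and lay between 6.78 and 17.1 CPM in Ctrl and between 19.0 and 27.4 CPM in Dot1l-cKO. The matrix protein gene Tnc rose by 1.04 (0.00531) and lay between 55.3 and 118 CPM in Ctrl and between 146 and 218 CPM in Dot1l-cKO. The ranges of Aqp4, Hopx and Tnc did not overlap between the genotypes. The same held for 9 of the 24 listed genes and, with Dot1l-cKO higher, for 6.17% of all genes tested. Id1, Mt3, Cst3, Ednrb, Slc1a3 and Aldoc rose by 0.69, 0.64, 0.52, 0.45, 0.43 and 0.39. The other 13 did not pass, among them the acyl-CoA binding protein gene Dbi (0.082, adjusted p = 0.707), the glutamate transporter gene Slc1a2 (0.064, 0.904) and Aldh1l1 (0.96, 0.0609). With the replicate block 12 were called, Id3 (0.93, 0.0298) among them, where 6.51% of all genes were called higher. Aldoc passed narrowly (0.0463), and lost its call without any 1 library other than Ctrl replicate 3 (0.0582 to 0.110). Id1 (0.0346) lost it without any 1 library other than Ctrl replicate 3 and Dot1l-cKO replicate 2 (0.0638 to 0.0921). Without Dot1l-cKO replicate 2, 10 were called higher (4.83% of all genes), within the 6 libraries outside header number 57 also 10 (3.41%), and with the ventral marker level as a covariate 6 (2.48%).

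**Figure D5:**
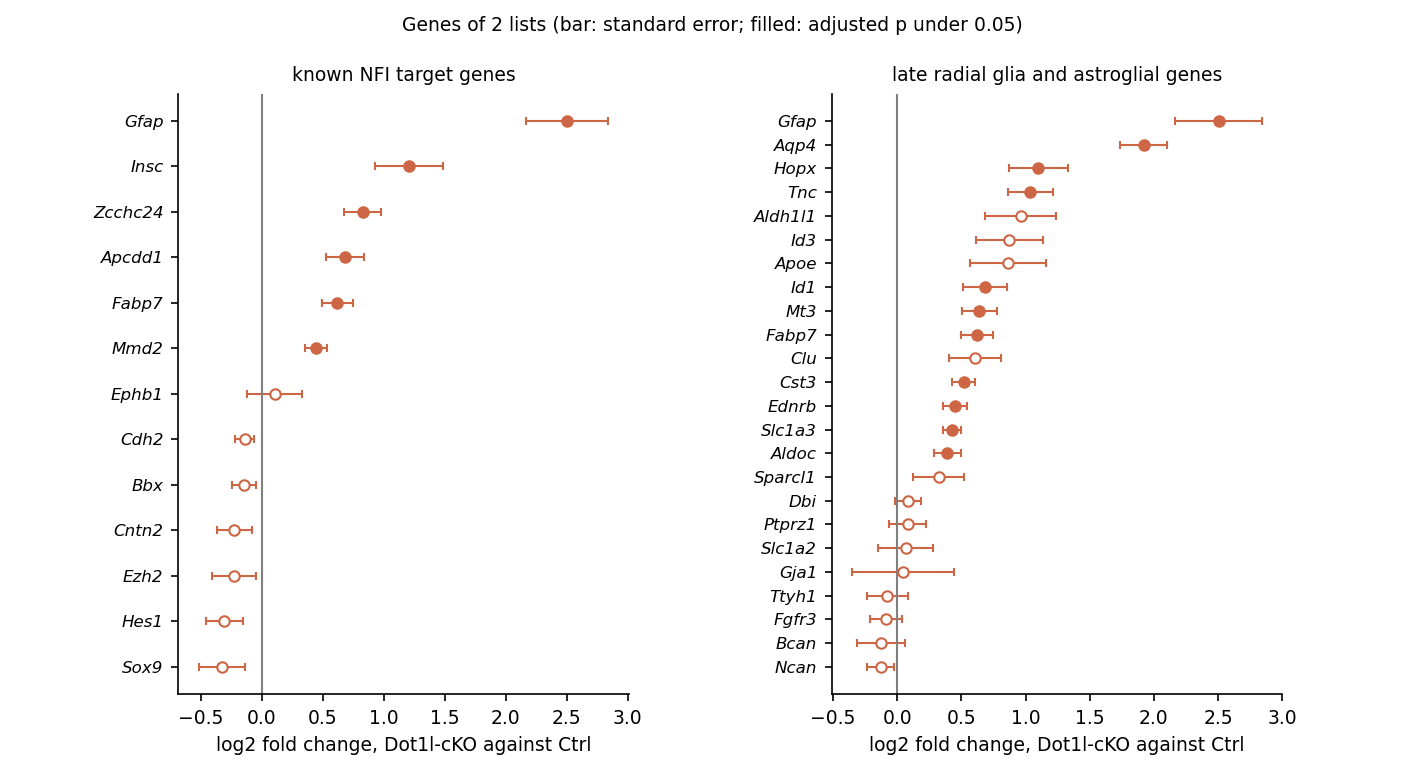
Log2 fold changes, Dot1l-cKO against Ctrl, of the 13 known NFI targets (left) and 24 late radial glia and astroglial genes (right), with standard errors; filled points have an adjusted p under 0.05. All filled points (6 and 11) lie to the right of 0, led by Gfap at 2.50.

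Among 15 other genes of temporal progenitor identity, 2 of 14 tested fell and none rose, where 1.44% of all genes fell. The median was -0.34. Igf2bp1, an RNA binding protein of early progenitors, fell by 1.35 (SE 0.12, edgeR adjusted p = 0.000180), from between 103 and 149.8 CPM in Ctrl to between 39.2 and 58.2 CPM in Dot1l-cKO. Pou3f3, a POU factor of upper layer production, fell by 0.68 (0.00140), from between 427 and 541 CPM to between 258 and 328 CPM. Neither gene overlapped between the genotypes, as for 2.17% of all genes with Dot1l-cKO lower, and the study had picked both from these libraries. Hmga2, a chromatin protein of early progenitors, was at -0.74 (adjusted p = 0.0787; 0.0150 with the replicate block) and Nr2f2 at -0.70 (0.116; 0.0300 with the block). Nr2f1, a nuclear receptor of areal identity, was at -0.20 (0.491) and Fezf2, of deep layer neurons, at 0.26 (0.296). Lin28a was below the filter, at 0.0388 CPM in Ctrl and 0.0590 in Dot1l-cKO.

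Genes of the medial pallium, the field in which Zbtb20 acts, gave 3 calls of 9, where 5.67% of all genes rose and 1.44% fell: Lhx9 (0.77, edgeR adjusted p = 0.0111) and Lhx5 (0.82, 0.0443), LIM homeodomain factors, rose, and Dmrt3 fell by 0.70 (0.0449). Lhx5 had been picked by the study from these libraries. Markers of the cortical hem and choroid plexus, which share Wnt3a with this list, varied widely between libraries. They summed to 7.75 to 674 CPM in Ctrl and 8.78 to 179 CPM in Dot1l-cKO, and none of the 8 was called. Whether the extent of the dissected tissue had a part in the medial pallium calls was not tested. Emx2 and Dmrta2, regulators of cortical area size, were at -0.52 (0.193) and 0.11 (0.802), Emx2 passing without Ctrl replicate 5 (-0.67, 0.0370). Lhx5 held without Ctrl replicate 2 or 3 and was lost without any other 1 library (adjusted p 0.0764 to 0.107), and Dmrt3 held without Ctrl replicate 5 or Dot1l-cKO replicate 5 and was lost without any other (0.0624 to 0.0949). Of the 39 other Zbtb genes 37 were tested and none was called by edgeR, DESeq2 or limma. Of them 5 (13.5%) were at an unadjusted p under 0.05, against 20.6% of all genes. With the replicate block, where 2.91% of all genes were called lower, Zbtb12 (-0.27, adjusted p = 0.0291) and Zbtb26 (-0.27, 0.0486), the second named after its values were seen, were lower. Zbtb18, the family member with the highest level per length and a repressor known for cortical neuron differentiation, was at 806 ± 75.6 CPM in Ctrl and 799 ± 79.1 in Dot1l-cKO (log2 fold change -0.013, adjusted p = 0.957).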

How the data were processed

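Total RNA of dorsal telencephalon at E14.5 was sequenced after rRNA depletion with a stranded kit, 5 libraries per genotype. According to the methods and the submitters' processing notes, the authors trimmed reads with Trim Galore 0.2.8, aligned them to mm10 with TopHat2 2.0.9, counted reads per gene of Ensembl release 79 with HTSeq 0.6.0 using the strand, and compared genotypes with DESeq2 1.6.1. The deposited raw tables hold whole-number counts per gene; the deposited normalised tables hold a signal, the counts divided by a DESeq2 size factor per library, which was checked on the files. Groups came from the genotype labels. Symbols, lengths and coordinates came from GENCODE vM21 (GRCm38), which named 42548 of the 43629 gene identifiers; rows without a symbol held 0.268% of counts, and no row lacked an identifier.

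Counts were tested in R 4.3.3 with edgeR 4.0.16 (filterByExpr, TMM scaling, quasi-likelihood test, Dot1l-cKO against Ctrl, no covariate) and Benjamini-Hochberg adjustment over 17039 genes; a call is an adjusted p under 0.05. Of these, 966 genes were higher and 246 lower in Dot1l-cKO. CPM are counts per 1000000 of the TMM-scaled library size, and log2 CPM for correlations add a prior count of 2. On counts simulated for 17039 genes with 200 changed by 1 on the log2 scale in this comparison, 88.5% were recovered and 5.35% of calls were false. Changes as small as those of the members and differences between header sets were not simulated. The recovery of such small changes is therefore not known. Same-numbered libraries of the 2 groups deviated together from their group means (r over genes 0.131 to 0.597 for the 5 pairs, mean 0.290). The mean for other pairs was -0.072. Single pairs were less clear: Ctrl replicate 2 had r = 0.349 with Dot1l-cKO replicate 2 and 0.350 with replicate 3. Ctrl replicate 3 had 0.145 with Dot1l-cKO replicate 3 and 0.446 with replicate 5. Replicate numbers were taken as pairs from the data, but the main test did not use them. Both libraries of a pair carry the same header number, so the main test also left this matching out. Only the number 57 occurs in more than 1 pair. With the replicate block Nfib passed (edgeR adjusted p = 0.0285), as it did with header number 57 as a covariate (0.0120). What the paired libraries share beyond the header number is not stated in the labels. The labels call the libraries biological replicates, and no pair of a group agreed within sampling noise (chi-square per degree of freedom at least 30.8). Alternatives were DESeq2 1.42.0, limma 3.58.1 on log2 of the normalised values with a pseudocount of 1, 1 surrogate variable from sva 3.50.0, other scalings, filters and covariates, subsets of libraries, and each library left out in turn; counts of each list without Dot1l-cKO replicate 2 were added after the data were seen.

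The genes and lists were chosen with earlier results of these data known. Genes named from a list are up to 4 called members with the largest fold change and up to 3 with the highest level per length; others are named to complete a count. Likeness to a member is Pearson's r of log2 CPM over the 10 libraries. Intervals are 95%. No column was left unused. Some results are not reported here.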

Additional observations from a re-analysis of the deposited data

Results flagged for a closer look

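In groups of 5, the gap of the outermost library to its neighbour was divided by the range of log2 CPM in the group and held against Dixon's limit, for 32 genes in both genotypes. Of 64 groups, 5 passed, and chance passes about 1 in 20 groups. Dot1l in Dot1l-cKO passed at 0.717 through replicate 2 (20.1 CPM, median of the group 42.3). Lhx5 in Dot1l-cKO passed at 0.775 through replicate 4 (7.89 CPM, median 8.70). Zbtb17 in control passed at 0.714 through replicate 5 (85.3 CPM, median 77.9). Zbtb18 passed in control at 0.800 and in Dot1l-cKO at 0.714, each time through replicate 4 (674 CPM, median 827, and 663 CPM, median 829). None of the 5 members passed in either genotype, although Dot1l-cKO replicate 2 was the lowest library for each of them.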

How the results depend on the processing

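The fold changes of Nfia and Nfix kept their negative sign and stayed above the threshold under all 14 alternatives and all 10 fits without 1 library; Nfib kept its sign in all of them. Nfib passed with DESeq2 (-0.47), the replicate block (-0.46), header number 57 as a covariate (-0.45), 1 surrogate variable (-0.46) and limma on the normalised counts (-0.48), and its fold change lay between -0.54 and -0.35 without 1 library. Nfic reversed within the 6 libraries outside header number 57 (0.31) and ran from -0.25 to 0.15 without 1 library, being positive without Dot1l-cKO replicate 2 (0.15) or 3 (0.028). Zbtb20 reversed with the ventral marker score as a covariate (0.20) and without Dot1l-cKO replicate 2, its range without 1 library being -0.25 to 0.043. The cause of these changes was not tested.

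The replicate block moved the calls among the temporal factors from 2 to 4 and among the other Zbtb genes from 0 to 2, lost Insc and Apcdd1 and gained Nfib, Ezh2 and Id3; it changed no other call among the genes named. All genes called numbered 2011 with DESeq2 (1348 higher, 663 lower), 2005 with 1 surrogate variable, 745 within the 6 libraries outside header number 57, 496 with the ventral score and 1 within the 4 libraries of header number 57, against 1212, and from 750 to 1357 without 1 library (750 without Ctrl replicate 1, 779 without Ctrl replicate 4). Within those 4 libraries 0 genes of any list and 0 of the member loci were called, in a fit of 2 against 2. Within the 6 others the calls were 3 NFI targets, 1 medial pallium gene, 1 Zbtb gene and 1 gene of the loci; with the ventral score they were 3 targets, 6 astroglial genes and 1 medial pallium gene. The temporal factors had 5 calls with DESeq2. The medial pallium calls dropped from 3 to 1 with total counts, with sex as a covariate and in 6 of the fits without 1 library, which gave 1 to 3 calls. Header number 57 as a covariate called 1 Zbtb gene, and fits without 1 library called 0 to 1 of them. Per kilobase of the longest transcript, control levels were 30.6 for Nfia, 170 for Nfib and 49.0 for Nfix, in the same order.

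Signs of uncalled genes turned for Dot1l within header number 57 (-0.37), with limma (-0.0058) and without Dot1l-cKO replicate 5, with a range of -0.046 to 0.25 without 1 library. They turned for Dmrta2 within header number 57 (-0.077) and with the ventral score (-0.31), for Nr2f1 within header number 57 (0.056), and for Zbtb18 with total counts (0.032), within header number 57 (0.046), with sex as a covariate (0.0026) and without Ctrl replicate 3 or 5 or Dot1l-cKO replicate 4 (range -0.072 to 0.047).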
